A study of Mus musculus with 4 samples.

Results

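The 8 genes described here code for death receptors, the proteins that bind their intracellular tails, and caspases: *Fas*, *Tnfrsf10b*, *Fadd*, *Cflar*, *Casp8*, *Casp9*, *Casp4* and *Casp1*. They were taken as a named list, through their Ensembl identifiers, from a table of 55359 genes, and all 8 were found in it. The table holds bulk RNA-seq counts of T8, a mouse B-cell precursor leukemia (pB-ALL) line derived from a single tumor that arose in an *Irf4*-/- mouse, so that every library carries the *Irf4* deletion. Cells were transduced with a retrovirus coding for GFP alone (EV-RV, 2 libraries) or for GFP together with IRF4 (IRF4-RV, 2 libraries), and the study collected still viable cells the day after. IRF4 was therefore supplied by a vector, in 1 line of leukemia cells, and nothing in the labels says whether the 2 libraries of a group came from separate cultures. The p-values below measure the spread between these libraries, which may be technical. In bulk RNA, fewer cells of a type and less RNA per cell cannot be told apart.

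Death receptors of the TNF receptor family carry a death domain in their cytoplasmic tail. When a ligand clusters them, the adaptor FADD is recruited and brings in caspase-8, which is activated by dimerization, while the caspase-like protein cFLIP, the product of *Cflar*, competes for the same platform and sets how much caspase-8 activity results. Caspase-9 starts the other, mitochondrial route on the APAF1 apoptosome, and both routes converge on the executioner caspases. Caspase-1 and caspase-4 (in mice also called caspase-11) belong to the inflammatory caspases, which respond to inflammasome sensors or to intracellular bacterial lipopolysaccharide and cleave gasdermin D and cytokine precursors. IRF4 is a transcription factor of the interferon regulatory factor family that acts in B-cell development.

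Libraries held between 31230223 and 37817752 counts. *Irf4* itself (ENSMUSG00000021356) had 241.7 and 240.9 CPM (counts relative to the library size after TMM factors) in EV-RV and 2820.1 and 2489.0 CPM in IRF4-RV. Counts over the whole gene do not show which exons the EV-RV reads came from, nor how many of the IRF4-RV reads came from the vector. Of 13 markers of B-cell progenitors 12 were expressed well enough to be tested. Of these 2 were called higher, 4 lower and 6 not called, where 29.7% of all genes tested were called in either direction. Log2 fold changes of the called markers ran from -1.49 to 0.84, so that some markers of the cells themselves differed in IRF4-RV. There were 4218, 3398, 3637 and 3316 counts of *Ebf1*, coding for a transcription factor of early B cells and not called, in EV-RV 1, EV-RV 2, IRF4-RV 1 and IRF4-RV 2, while *Rag1* had at most 1 count in any library. Markers of T and NK cells (10 genes) summed to between 2.0 and 2.47 CPM, with 6 of the genes at no more than 3 counts in each library. Myeloid markers (11 genes, 8 of them at no more than 3 counts in each library, *Adgre1* and *S100a8* at 0) summed to 7.37 and 6.85 CPM in EV-RV and 3.28 and 3.46 CPM in IRF4-RV. Most of that sum was *Fcgr3*, with 220 and 191 counts in EV-RV and 79 and 84 in IRF4-RV, while *Cd68* had 21 and 15 counts against 25 and 29. The 9 stromal cell markers summed to 48.3 and 91.3 CPM in EV-RV and to 48.1 and 224.7 CPM in IRF4-RV, and 7 of the 9 were highest in IRF4-RV 2. The lines had been established on ST2 stromal cells and later grew without them.

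Across the table, 14637 genes were expressed well enough to be tested with edgeR's quasi-likelihood F test, and 29.7% of them were called at a Benjamini-Hochberg adjusted p (FDR) below 0.1, 16.0% higher and 13.7% lower in IRF4-RV. Of the 8 genes 7 were tested. *Cflar*, *Casp8*, *Casp9* and *Casp4* were called higher, which makes 4 of 8 genes, and none was called lower. The median log2 fold change of the 7 tested genes was 0.38, against 0.007 over all genes tested. *Casp4* entered the test only through its IRF4-RV libraries, since neither EV-RV library reached the 0.301 CPM (10 counts at the median depth, needed in 2 libraries) of the filter, so that it had to differ in order to be tested. With scaling to library size alone, which moved the median of all genes to -0.0832, 1743 genes were called higher and 2867 lower in place of 2340 and 2009, and 5 of the 8 genes were called, the fifth being *Casp1*, which was lower. Values of the 2 groups did not overlap, with IRF4-RV above EV-RV, for 5 of the 7 tested genes, against 31.3% of all genes tested, and with IRF4-RV below EV-RV for 1 of the 7, against 29.9%. The 5 include *Casp4*, whose IRF4-RV values had to be the higher ones for it to be tested. The plot of CPM by library shows these values for each gene.

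**Figure D1:**
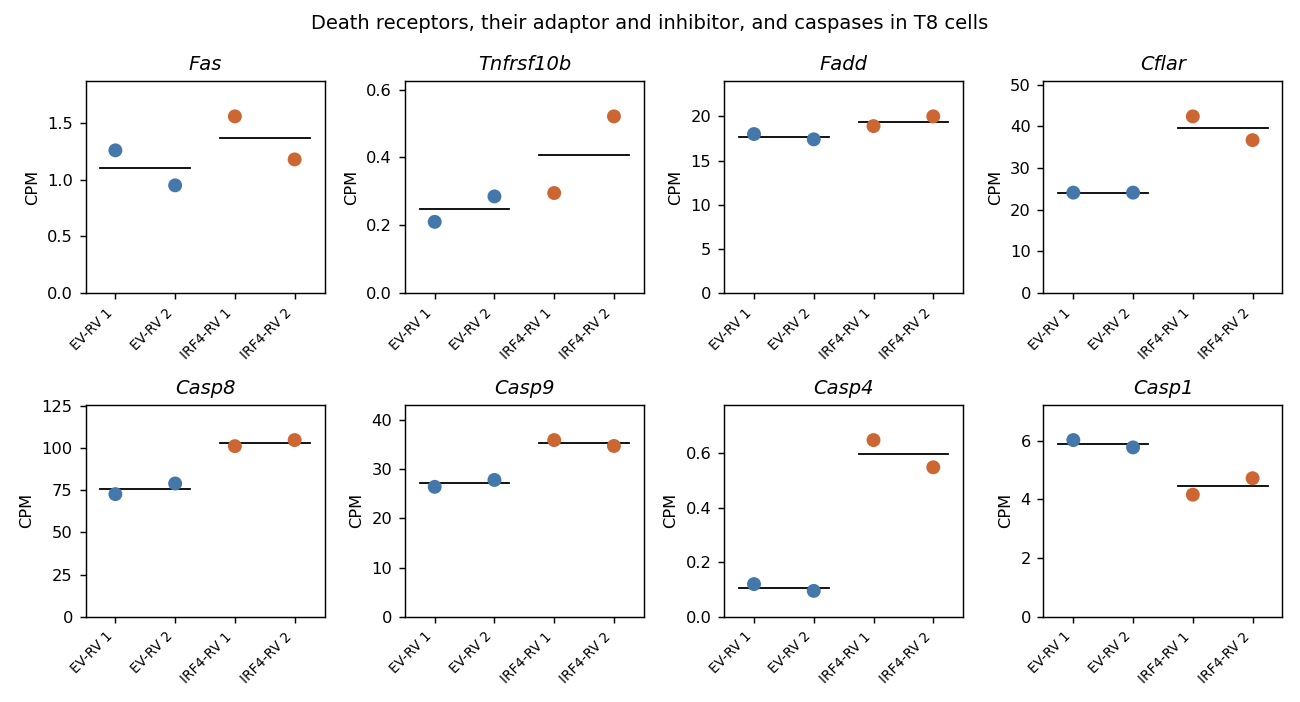
CPM of the 8 genes (vertical axes from 0, a different range in each panel) in EV-RV 1 and 2 (blue) and IRF4-RV 1 and 2 (orange), with black lines at the group means. *Cflar*, *Casp8*, *Casp9* and *Casp4* lie higher in both IRF4-RV libraries, *Casp1* lies lower in both without passing the test, and the libraries of *Fas* overlap.

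Both death receptors of the list were at the low end of expression, and neither passed the test for a change. *Fas* (ENSMUSG00000024778, chr19:34290666-34327772 on GRCm38, plus strand), the receptor of FAS ligand, had 42 and 30 counts in EV-RV and 53 and 43 in IRF4-RV, or 1.26, 0.951, 1.56 and 1.18 CPM. The highest EV-RV value lay above the lowest IRF4-RV value. The log2 fold change of *Fas* was 0.31 (SE 0.335, adjusted p = 0.566), and it ran from 0.07 to 0.52 when single libraries were left out. *Tnfrsf10b* (ENSMUSG00000022074, chr14:69767472-69784411, plus strand), the only mouse TRAIL receptor with a death domain, had 7 and 9 counts in EV-RV and 10 and 19 in IRF4-RV. That was too few for the filter. The ratio of its normalized counts was 1.67 with an exact 95% Poisson interval of 0.879 to 3.30, which covers counting error only, and without the filter its log2 fold change was 0.72 (SE 0.658, adjusted p = 0.724). No change of either receptor was detected.

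Among the listed ligand genes of the TNF family, not all of them for receptors with a death domain, the gene for TRAIL rose and lymphotoxin genes fell. *Fasl*, coding for FAS ligand, had no count in any library, which at the 3 counts that a count of 0 allows limits it to between 0.0823 and 0.0951 CPM. *Tnf* had 5 and 4 counts in EV-RV and 10 and 6 in IRF4-RV and was not tested. *Tnfsf10*, which codes for TRAIL, had 4.52 and 4.50 CPM in EV-RV and 10.4 and 9.72 CPM in IRF4-RV, a log2 fold change of 1.16 (SE 0.133, adjusted p = 0.000776). *Lta*, coding for lymphotoxin alpha, fell from 47.5 and 52.1 CPM to 13.7 and 15.0 CPM (log2 fold change -1.79, adjusted p = 2.47e-05), and *Ltb*, coding for its membrane-bound partner, fell from 9.07 and 9.25 CPM to 6.64 and 5.98 CPM (-0.54, adjusted p = 0.0222). The call of *Ltb* was lost without IRF4-RV 2 (log2 fold change -0.46, adjusted p = 0.102). Of 7 ligand genes 3 were tested, and 1 was called higher and 2 lower.

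Of the 5 other death receptor genes 2 were tested. *Tnfrsf21*, coding for death receptor 6, fell from 24.1 and 22.5 CPM to 15.0 and 12.9 CPM (log2 fold change -0.74, SE 0.113, adjusted p = 0.00292). *Tnfrsf1a*, coding for TNF receptor 1, had 13 and 44 counts in EV-RV and 18 and 90 in IRF4-RV, with a log2 fold change of 0.76 (SE 0.756, adjusted p = 0.525). Its values followed neither group: EV-RV 2 and IRF4-RV 2 were high and EV-RV 1 and IRF4-RV 1 low, and the log2 fold change was -0.73 without IRF4-RV 2 and 1.46 (adjusted p = 0.0146) without IRF4-RV 1. The summed stromal cell markers were likewise highest in IRF4-RV 2 and next highest in EV-RV 2, as the plot of stromal markers shows, and their part in *Tnfrsf1a* was not tested. Of the 3 decoy TRAIL receptor genes 1 was tested, and it was not called. *Tnfrsf11b*, which codes for the soluble decoy osteoprotegerin and was picked for its values, had 1 and 5 counts in EV-RV and 6 and 35 in IRF4-RV and so was also highest in IRF4-RV 2. Among the 8 genes, *Fas*, *Cflar*, *Casp9* and *Casp4* were lower in IRF4-RV 2 than in IRF4-RV 1, while *Tnfrsf10b*, *Fadd*, *Casp8* and *Casp1* were higher. *Tnfrsf10b*, at 10 and 19 counts in these libraries and 7 and 9 in EV-RV, was highest in IRF4-RV 2 and was also higher in EV-RV 2 than in EV-RV 1, and the part of stromal cells in it was not tested. Without IRF4-RV 2, when 24.1% of the genes tested were called, *Cflar*, *Casp8*, *Casp9* and *Casp4* were called higher as before.

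**Figure D2:**
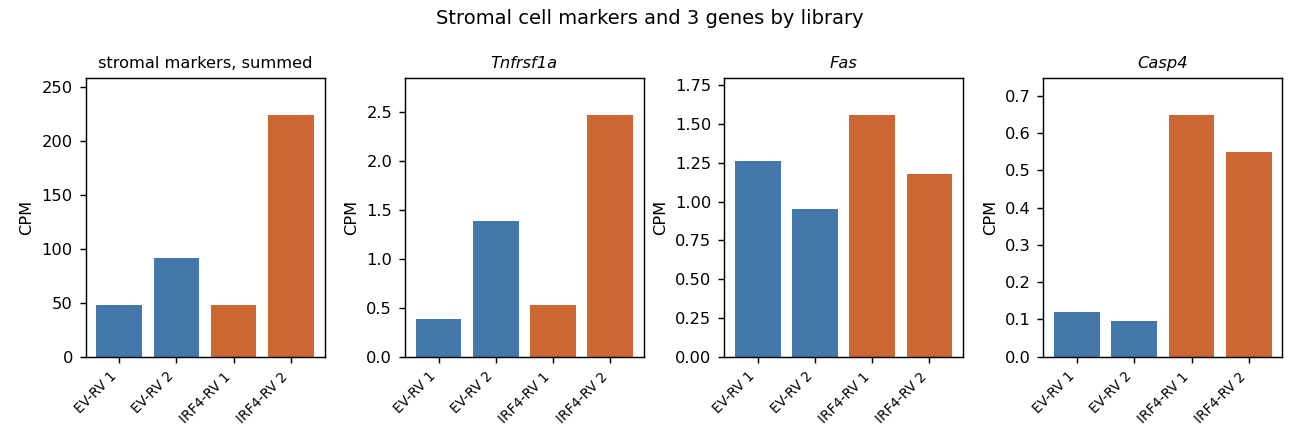
CPM (vertical axes from 0, ranges differ) of the 9 stromal cell markers summed, and of *Tnfrsf1a*, *Fas* and *Casp4*, with 1 bar per library (EV-RV blue, IRF4-RV orange). Stromal markers (224.7 CPM) and *Tnfrsf1a* (2.47 CPM) are highest in IRF4-RV 2, while *Fas* and *Casp4* are highest in IRF4-RV 1.

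The adaptor that links these receptors to caspase-8 was not called. *Fadd* (ENSMUSG00000031077, chr7:144577318-144582463, minus strand) had 18.0 and 17.4 CPM in EV-RV and 18.9 and 20.0 CPM in IRF4-RV. The libraries did not overlap, but the log2 fold change of 0.14 (SE 0.0973, adjusted p = 0.366) did not pass the test, and its highest value among 10 alternative analyses was 0.16. The antisense gene *Faddos*, which overlaps *Fadd*, had no more than 5 counts in a library. Whether the counting used strand is not known. Of the 6 other adaptor and kinase genes of receptor complexes, 3 were called higher and none lower. These were *Daxx*, coding for a FAS-binding protein that also acts as a histone chaperone (log2 fold change 1.17, SE 0.0792, adjusted p = 4.99e-05), *Cradd*, coding for the adaptor of caspase-2 (0.56, SE 0.0927, adjusted p = 0.00423), and *Tradd*, coding for the adaptor of TNF receptor 1 (0.37, SE 0.0835, adjusted p = 0.0159). *Ripk1*, coding for the kinase that decides between survival and death signals at that receptor, had 35.8 and 32.0 CPM in EV-RV and 35.8 and 32.6 CPM in IRF4-RV, with a log2 fold change of 0.01 (SE 0.10, adjusted p = 0.955) whose sign changed with the scaling.

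*Cflar* and *Casp8*, the inhibitor and the initiator caspase of the same complex, both rose. They are neighbors on chromosome 1, on the plus strand, with 36490 bp between them: *Cflar* (ENSMUSG00000026031) spans chr1:58711508-58758884 and *Casp8* (ENSMUSG00000026029) chr1:58795374-58847503. *Cflar* had 804 and 760 counts in EV-RV and 1438 and 1338 in IRF4-RV, or 24.1 and 24.1 CPM against 42.4 and 36.7 CPM. Both IRF4-RV libraries were well above EV-RV, IRF4-RV 1 more so. The log2 fold change of *Cflar* was 0.72 (SE 0.102, adjusted p = 0.00212), and it stayed between 0.59 and 0.82 in 10 alternative analyses. In those that kept all 4 libraries and did not pair them by replicate number, adjusted p ran from 4.51e-09 to 0.00632. *Casp8* had 2424 and 2488 counts in EV-RV and 3423 and 3811 in IRF4-RV, or 72.6 and 78.9 CPM against 101 and 104.6 CPM. Its log2 fold change was 0.44 (SE 0.0802, adjusted p = 0.00653), with 0.35 to 0.50 among the alternatives. Adjusted p of *Casp8* ran from 5.56e-05 to 0.0124 in the alternatives with all 4 libraries and no such pairing. The gene model *Gm37760*, which lies within *Casp8*, had no more than 9 counts in a library.

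Because a ratio of 2 genes within a library does not depend on the scaling between libraries, *Cflar* was also set against *Casp8* in counts per kb of merged exons. The ratio was 0.0757 and 0.0698 in EV-RV and 0.0959 and 0.0802 in IRF4-RV. The IRF4-RV ratios were both higher, by 0.27 on the log2 scale on average, with SDs of 0.0840 and 0.183 (n = 2 each). The difference ran from 0.14, without IRF4-RV 1, to 0.40, without IRF4-RV 2, when single libraries were left out. With 2 libraries against 2, the smallest p of the two-sided exact permutation test is 0.333, which was obtained here and for each of the 3 other ratios computed (0.333 also after adjustment over the 4 ratios), so that no ratio could pass a threshold. The ratio of *Casp8* to *Fadd* was 5.44 and 6.13 in EV-RV and 7.19 and 7.07 in IRF4-RV. The ratio of *Fas* to *Cflar* was 0.321 and 0.243 in EV-RV and 0.226 and 0.197 in IRF4-RV. On leaving out single libraries its log2 difference ran from -0.60, without EV-RV 2, to -0.20, without EV-RV 1. This ratio rests on 42 and 30 counts of *Fas* in EV-RV and 53 and 43 in IRF4-RV, whose counting error it leaves out. The values of *Fas* alone overlapped between the groups, while *Cflar* was called higher. The plot of ratios shows the 4 ratios by library.

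**Figure D3:**
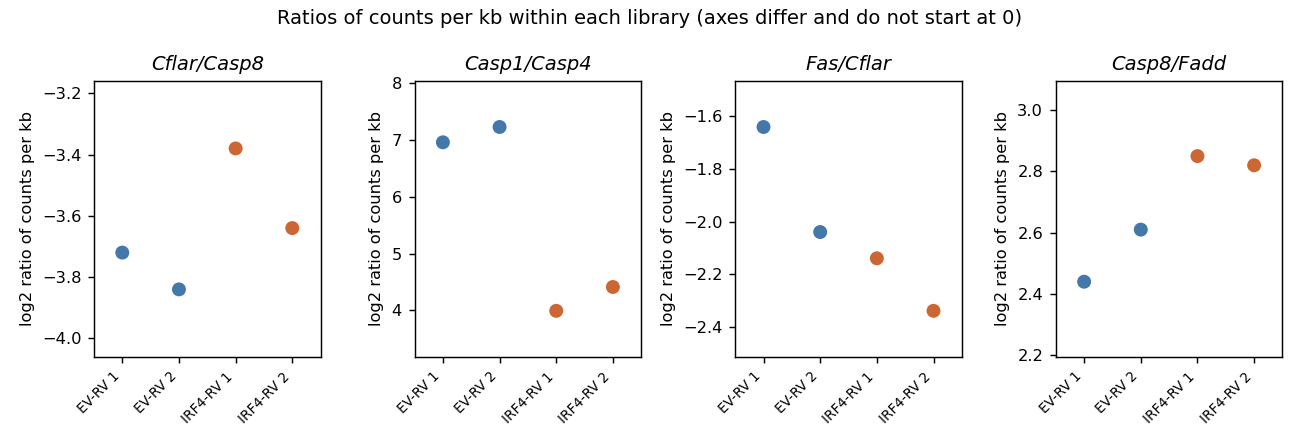
Log2 ratio of counts per kb of merged exons between pairs of genes (vertical axes do not start at 0 and differ in range) in each EV-RV (blue) and IRF4-RV (orange) library. In each panel the groups do not overlap, and the ratios share genes. Over all genes tested, CPM values of single genes did not overlap for 31.3% with IRF4-RV higher and 29.9% with it lower. The share for ratios of gene pairs was not computed. The widest separation is that of *Casp1* over *Casp4*, at 6.96 and 7.23 against 3.99 and 4.41. It rests on 4 and 3 counts of *Casp4* in EV-RV.

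RefSeq start regions (GRCm38.p6; 300 bases, 250 before the start site and 50 from it on) were given for 7 of the 8 genes, *Tnfrsf10b* being the exception, with a pair of starts for *Casp4*. They were searched on both strands for GAAA, any 2 bases and GAAA, the core of the interferon-stimulated response element (ISRE) bound by IRF proteins, GGAA, any 2 bases and GAAA, the composite element bound by ETS and IRF proteins together, and TTC, any 3 bases and GAA, the GAS element bound by STAT proteins. *Cflar* was the only one of the 7 with a match to the ISRE core, which lies on the minus strand at bases 257 to 266, just after the start site, and is shown in capitals as it reads on the plus strand (chr1:58711241-58711540, plus strand).
Cflar: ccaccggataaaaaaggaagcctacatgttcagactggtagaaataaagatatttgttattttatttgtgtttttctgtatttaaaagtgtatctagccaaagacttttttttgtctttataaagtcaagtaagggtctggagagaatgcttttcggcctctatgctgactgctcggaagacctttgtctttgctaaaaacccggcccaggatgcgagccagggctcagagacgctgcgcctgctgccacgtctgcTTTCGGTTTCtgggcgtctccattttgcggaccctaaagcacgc
Of 32817 RefSeq promoters of this length, 3.43% held the ISRE core, 2.72% the ETS-IRF composite and 8.29% the GAS element. No region of the 7 genes held the composite. *Fas* held the only GAS match, at bases 158 to 166 of chr19:34290409-34290708 (plus strand), in capitals in its region, which is shown because it is the only match in a gene that did not pass the test.
Fas: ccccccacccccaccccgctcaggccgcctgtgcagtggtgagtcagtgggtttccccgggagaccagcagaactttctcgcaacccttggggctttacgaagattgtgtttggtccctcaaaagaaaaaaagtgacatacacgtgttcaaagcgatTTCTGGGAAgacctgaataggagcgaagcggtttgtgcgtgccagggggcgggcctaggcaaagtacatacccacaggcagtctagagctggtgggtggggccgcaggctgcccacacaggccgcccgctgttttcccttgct
A match is a run of letters, and none of these libraries measured binding. The RefSeq start used for *Casp8* lies inside the longer GENCODE gene model, so its other start regions were not searched.

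Other genes listed as inhibitors of death receptor and caspase signaling mostly rose as well. Of the 7 listed genes, all tested, 5 were called higher and 1 lower, and their median log2 fold change was 0.45. The 5 include *Cyld*, named here for its role (log2 fold change 0.34, SE 0.0806, adjusted p = 0.0205). It codes for a deubiquitinase that can also promote death signaling, so the count is not one of inhibitors alone. *Tnfaip3*, coding for the ubiquitin-editing enzyme A20, rose from 2.81 and 2.16 CPM to 5.61 and 5.38 CPM (log2 fold change 1.14, SE 0.198, adjusted p = 0.00528). *Birc3* (0.78, SE 0.109, adjusted p = 0.00196) and *Birc2* (0.45, SE 0.0952, adjusted p = 0.0125) code for the ubiquitin ligases cIAP2 and cIAP1 of TNF receptor complexes. *Xiap*, which codes for a direct inhibitor of caspase-9 and of executioner caspases, rose from 67.3 and 64.7 CPM to 95.3 and 93.1 CPM (0.51, SE 0.0761, adjusted p = 0.00258). The lower gene, named after its values were seen, was *Faim*, coding for the FAS apoptotic inhibitory molecule (-0.33, adjusted p = 0.0378), whose call was lost on leaving out EV-RV 1 (adjusted p = 0.108), IRF4-RV 1 (0.134) or IRF4-RV 2 (0.113).

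*Casp9* (ENSMUSG00000028914, chr4:141793612-141815976, plus strand), the initiator caspase of the mitochondrial route, rose slightly. It had 883 and 877 counts in EV-RV and 1216 and 1265 in IRF4-RV, or 26.4 and 27.8 CPM against 35.9 and 34.7 CPM. The spread within groups was small beside the difference, and the log2 fold change was 0.38 (SE 0.0887, adjusted p = 0.0188). Without IRF4-RV 1 it was 0.34 and the call was lost (adjusted p = 0.103). *Cela2a* and *Ctrc*, annotated over the end of *Casp9* on the other strand, had no counts.

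The genes that work with caspase-9 moved in both directions. Of 6 apoptosome and mitochondrial genes 2 were called higher and 3 lower. *Apaf1*, coding for the apoptosome scaffold, went from 57.6 and 54.6 CPM to 74.9 and 67.4 CPM (log2 fold change 0.34, adjusted p = 0.0272). *Diablo*, coding for the XIAP antagonist Smac, went from 2.87 and 3.36 CPM to 4.16 and 5.16 CPM (0.58, adjusted p = 0.0759). Neither call held throughout. *Apaf1* was no longer called without EV-RV 2 (0.31, adjusted p = 0.107) or IRF4-RV 1 (0.25, adjusted p = 0.230), and *Diablo* without EV-RV 1 (0.46, adjusted p = 0.265), EV-RV 2 (0.70, adjusted p = 0.121) or IRF4-RV 2 (0.42, adjusted p = 0.332). *Endog*, coding for a mitochondrial nuclease (log2 fold change -1.22, SE 0.121, adjusted p = 0.000368), *Htra2*, coding for a mitochondrial protease that can antagonize IAPs (-0.93, SE 0.0760, adjusted p = 0.000144), and *Cycs*, coding for cytochrome c, which triggers the apoptosome (-0.47, SE 0.105, adjusted p = 0.0157), were lower.

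Among caspase genes outside the list, *Casp6* rose from 6.14 and 6.02 CPM to 8.50 and 8.86 CPM (log2 fold change 0.51, SE 0.129, adjusted p = 0.0252). *Casp2*, the initiator that uses *Cradd*, had a log2 fold change of 0.03 (SE 0.0739, adjusted p = 0.818). *Casp12* and *Casp14* had no more than 3 counts in any library. Of 6 genes for caspase substrates and nucleases 1 was called: *Bid*, whose product links caspase-8 to mitochondria once cleaved, fell from 29.0 and 30.2 CPM to 20.1 and 20.9 CPM (-0.53, SE 0.0916, adjusted p = 0.00523). The plot of log2 fold changes sets these genes beside the list.

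**Figure D4:**
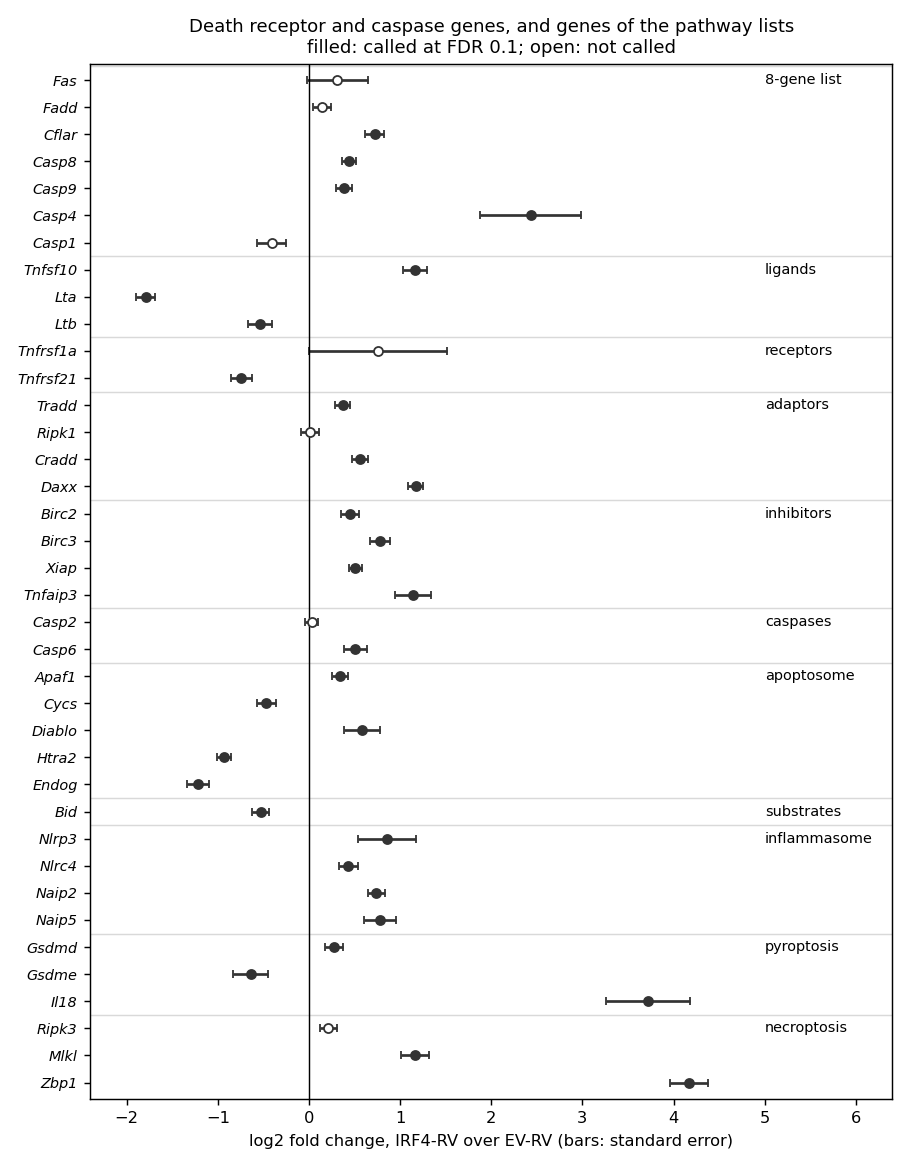
Log2 fold change of IRF4-RV over EV-RV with its standard error (horizontal axis) for the 7 tested genes of the list and genes of the pathway lists, ordered by role; filled points were called at an FDR of 0.1. Within the list *Casp4* has the largest log2 fold change (2.43) and the widest standard error (0.556), and *Casp1* is the only gene of the list with a negative value (-0.41, not called).

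The inflammatory caspases *Casp4* and *Casp1* lie next to each other on chromosome 9, on the plus strand and 1563 bp apart, and their values moved in opposite directions. Only the rise of *Casp4* passed the test. That gene entered the test only through its IRF4-RV libraries, so it had to be higher there to be tested at all. *Casp4* (ENSMUSG00000033538, chr9:5308828-5336783) had 4 and 3 counts in EV-RV and 22 and 20 in IRF4-RV, or 0.120 and 0.0951 CPM against 0.649 and 0.549 CPM. EV-RV was thus at or near the 3 counts that a count of 0 allows. The log2 fold change of *Casp4* was 2.43 (SE 0.556, adjusted p = 0.0173), and the ratio of normalized counts was 5.54 with an exact 95% Poisson interval of 2.47 to 14.6. The fold change stayed between 2.29 and 2.60 in 9 alternative analyses. Its adjusted p ran from 0.00544 to 0.084 in those with all 4 libraries and no pairing by replicate number. Under a filter of 50 counts in 2 libraries *Casp4* could not be tested.

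*Casp1* (ENSMUSG00000025888, chr9:5298517-5307265) had 201 and 182 counts in EV-RV and 141 and 172 in IRF4-RV, or 6.02 and 5.77 CPM against 4.16 and 4.72 CPM. Both IRF4-RV libraries were lower, but the log2 fold change of -0.41 (SE 0.158, adjusted p = 0.110) did not pass the test. It passed with scaling to library size alone (-0.50, adjusted p = 0.0641) and with the filter of 50 counts in 2 libraries (-0.43, adjusted p = 0.0951). Adjusted p of *Casp1* ran from 0.0641 to 0.331 in the alternatives with all 4 libraries and no pairing by replicate number. The ratio of *Casp1* to *Casp4* in counts per kb fell from 125 and 150 in EV-RV to 15.9 and 21.3 in IRF4-RV. The log2 difference was -2.89 with SDs of 0.192 and 0.300 (n = 2 each), which leave out the counting error of the few *Casp4* counts. With the longest transcript of *Casp4* (1901 bp against 3710 bp of merged exons) the ratios themselves are lower, while the log2 difference stays at -2.89. *Casp1* remained the more abundant of the pair in each library. The start regions of both genes are shown because they are so close together: chr9:5308599-5308898 for *Casp4* (the first of its RefSeq starts) and chr9:5298267-5298566 for *Casp1*, both on the plus strand and neither with a match to the ISRE core, the composite or the GAS element.
Casp4: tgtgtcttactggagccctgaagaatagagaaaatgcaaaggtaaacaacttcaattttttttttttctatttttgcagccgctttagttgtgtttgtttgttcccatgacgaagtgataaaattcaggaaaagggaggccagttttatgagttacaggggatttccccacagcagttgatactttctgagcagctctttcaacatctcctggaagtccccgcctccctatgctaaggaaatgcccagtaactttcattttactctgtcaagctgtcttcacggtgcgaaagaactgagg
Casp1: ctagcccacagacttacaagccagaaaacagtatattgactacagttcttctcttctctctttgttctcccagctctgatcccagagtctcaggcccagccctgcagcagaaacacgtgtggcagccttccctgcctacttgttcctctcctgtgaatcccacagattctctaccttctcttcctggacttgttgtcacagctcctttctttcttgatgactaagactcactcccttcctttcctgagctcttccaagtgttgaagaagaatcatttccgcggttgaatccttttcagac

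Of 11 genes for inflammasome sensors and their adaptor, which act upstream of caspase-1, 6 were tested, and 4 were called higher, 2 not called and none lower. *Naip5* (log2 fold change 0.78, SE 0.175, adjusted p = 0.0156), *Naip2* (0.74, SE 0.0979, adjusted p = 0.00148) and *Nlrc4* (0.43, SE 0.104, adjusted p = 0.0214) code for receptors of bacterial proteins and their partner, and *Nlrp3* (0.86, SE 0.318, adjusted p = 0.0963) codes for the sensor of membrane damage. *Naip2*, *Naip5* and *Naip6* (0.53, SE 0.254, adjusted p = 0.19, not called) are related genes in 1 cluster on chromosome 13. How reads were split between them is uncertain. The call of *Nlrp3* was lost on leaving out EV-RV 1 (1.12, adjusted p = 0.126), EV-RV 2 (0.63, adjusted p = 0.330) or IRF4-RV 1 (0.72, adjusted p = 0.262), and that of *Nlrc4* without IRF4-RV 1 (0.37, adjusted p = 0.123). *Pycard*, coding for the adaptor ASC that joins NLRP3 to caspase-1, had 0 and 1 counts in EV-RV and 1 and 1 in IRF4-RV, below the 3-count limit.

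Genes for gasdermins and cytokine precursors, set beside the inflammatory caspases, numbered 5, of which 3 were tested. *Il18*, coding for a cytokine precursor cleaved by caspase-1, had 4 and 3 counts in EV-RV and 48 and 55 in IRF4-RV (log2 fold change 3.72, SE 0.463, adjusted p = 0.00115), with a ratio of normalized counts of 13.6 and an exact 95% Poisson interval of 6.36 to 34.6. Like *Casp4*, it entered the test only through its IRF4-RV libraries. *Gsdmd*, coding for gasdermin D, went from 27.6 and 29.7 CPM to 32.9 and 36.7 CPM (0.28, SE 0.0987, adjusted p = 0.0816), and *Gsdme*, coding for gasdermin E, from 4.19 and 4.85 CPM to 3.04 and 2.77 CPM (-0.64, SE 0.189, adjusted p = 0.0466). The call of *Gsdmd* was lost on leaving out EV-RV 1 (0.22, adjusted p = 0.250), EV-RV 2 (0.33, adjusted p = 0.116), IRF4-RV 1 (0.34, adjusted p of 0.10, just above the threshold) or IRF4-RV 2 (0.20, adjusted p = 0.405), and that of *Gsdme* without EV-RV 2 (-0.53, adjusted p = 0.201) or IRF4-RV 2 (-0.57, adjusted p = 0.143).

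Necroptosis is the form of cell death that caspase-8 holds back by cleaving RIP kinases. Of its 3 genes here 2 were called higher. *Zbp1*, coding for a nucleic acid sensor that engages RIPK3, rose from 0.509 and 0.539 CPM to 8.70 and 10.3 CPM (log2 fold change 4.17, SE 0.210, adjusted p = 1.45e-05), and *Mlkl*, coding for the pore-forming effector, from 9.10 and 7.23 CPM to 16.4 and 20.1 CPM (1.16, SE 0.155, adjusted p = 0.00159). *Ripk3*, coding for the kinase between them, had 21.4 and 21.8 CPM in EV-RV and 24.4 and 25.7 CPM in IRF4-RV (0.21, SE 0.0925, adjusted p = 0.152). Over all 65 genes of the 11 pathway lists, 47 were tested, 21 were called higher, 9 lower and 17 not called, with a median log2 fold change of 0.21. Over all genes tested, 16.0% were called higher and 13.7% lower, the shares beside which this and each list's count are to be read.

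Levels can be compared between genes only per length, here as CPM per kb of merged exons (mean ± SD, n = 2). Lengths were those of GENCODE M21, while the counting used gene models that are not known, so that levels and order may shift with them. In EV-RV, *Casp8* was the most abundant of the 8 genes at 26.2 ± 1.53, followed by *Casp9* at 5.22 ± 0.184, *Fadd* at 4.53 ± 0.114, *Casp1* at 3.94 ± 0.118, *Cflar* at 1.90 ± 0.000621, *Fas* at 0.536 ± 0.105, *Tnfrsf10b* at 0.0454 ± 0.00981 and *Casp4* at 0.0290 ± 0.00471. The library values of no neighbors in this order overlapped, although those of *Tnfrsf10b* and *Casp4* rest on single-digit counts. In IRF4-RV the order began alike, with *Casp8* at 35.5 ± 0.878, *Casp9* at 6.79 ± 0.158 and *Fadd* at 4.98 ± 0.183. *Cflar* at 3.12 ± 0.319 and *Casp1* at 2.97 ± 0.265 followed with overlapping library values, then *Fas* at 0.665 ± 0.132, *Casp4* at 0.161 ± 0.0191 and *Tnfrsf10b* at 0.0749 ± 0.0294. Per length of the longest transcript instead, *Cflar* lay above *Fadd* in IRF4-RV, at 6.02 ± 0.614 against 4.98 ± 0.183.

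Of caspase genes outside the list, *Casp2* (11.5 ± 0.0877 per kb in EV-RV and 11.7 ± 0.0312 in IRF4-RV) lay between *Casp8* and *Casp9* in both groups. *Casp6* (1.09 ± 0.0148 and 1.55 ± 0.0464) lay between *Casp1* and *Casp4* in both. The plot of caspase levels shows these values.

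**Figure D5:**
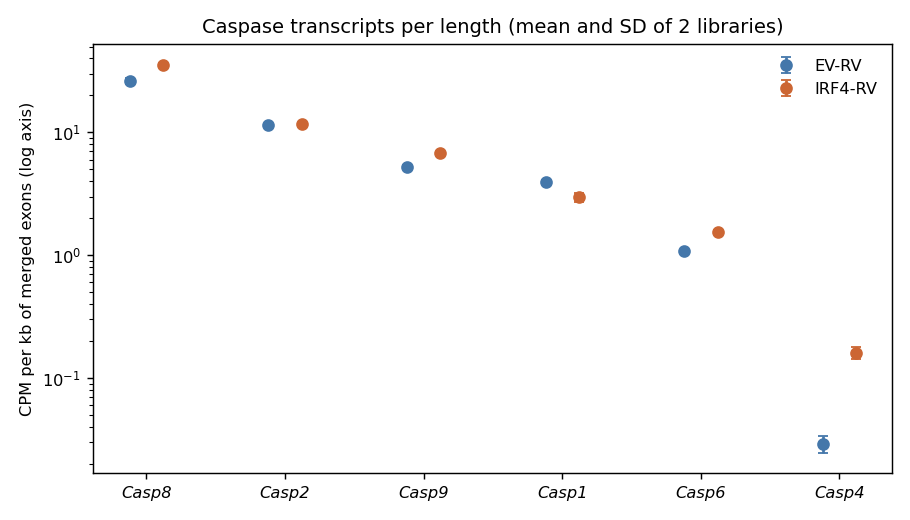
CPM per kb of merged exons (log axis) of 6 caspase genes, ordered by their EV-RV level, as mean and SD of 2 libraries in EV-RV (blue) and IRF4-RV (orange). Of the 6, *Casp8* is highest in both groups and *Casp4* lowest in both, at 0.0290 and 0.161.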

How the data were processed

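RNA was measured in 4 libraries of T8 cells (EV-RV 1 and 2, IRF4-RV 1 and 2), grouped by the sample labels, whose protocol text names T11 while titles and tissue name T8. Per the labels and the study's methods, the authors aligned reads to GRCm38 with STAR (version 2.4.0j), counted them per gene with featureCounts and deposited the counts, which are raw whole numbers. Strand and multi-mapping settings were not given in the sources used here. Of 55359 Ensembl identifiers 52083 matched GENCODE M21, which gave symbols, coordinates and lengths. The other 3276 held 0.203% to 0.486% of a library's counts.

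Genes passing filterByExpr were tested in R 4.3.3 with edgeR 4.0.16 (TMM factors 0.964 to 1.05, quasi-likelihood F test, group only, Benjamini-Hochberg over all genes tested, FDR 0.1 as in the study). SE is the log2 fold change divided by the root of F. Replicates differed beyond sampling noise (chi-square per degree of freedom 14.1 in EV-RV and 13.1 in IRF4-RV). Intervals and the 3-count limit cover counting error only. Alternatives were DESeq2 1.42.0, DESeq2's size factors, library size only, other filters, an FDR of 0.05, a replicate block, transcript length and leaving out each library. The procedure was checked on simulated counts, where the share of false calls exceeded the FDR set, so adjusted p near 0.1 is weak. Genes, lists and alternatives were chosen with earlier results of these data known. Named were the 8 genes, *Irf4*, per pathway list up to 4 called genes with non-overlapping libraries and the largest changes, called neighbors within 100 kb, and *Casp2*, *Casp6*, *Apaf1*, *Tnfrsf1a*, *Ripk1*, *Fasl*, *Tnfsf10*, *Tnf*, *Xiap*, *Gsdmd*, *Pycard*, *Ripk3* and *Mlkl* whatever their values. Some genes that this rule names are not reported here. Protein sequences were not analysed here.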

Additional observations from a re-analysis of the deposited data

How the results depend on the processing

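Of the 8 genes, *Cflar*, *Casp8*, *Casp9* and *Casp4* were called with DESeq2's size factors, with DESeq2, with no filter beyond 1 count and on leaving out EV-RV 1, EV-RV 2 or IRF4-RV 2. Without IRF4-RV 1, 3 of them were called: *Casp9* was lost, and its log2 fold change ranged from 0.34 to 0.42 over the left-out libraries. *Casp1* was called in addition with library size only (-0.50), and with the filter of 50 counts (-0.43), under which *Casp4* and *Fas* were not tested. The number of genes called over the whole table was 4349, 3641 with DESeq2, 3347 at an FDR of 0.05 and 3424 to 3642 when a library was left out. With the replicate number as a block it was 6394, and *Casp1* was called too (log2 fold change -0.41, adjusted p = 0.0575). Only 2 numbers are shared and nothing ties same-numbered libraries to a culture (Pearson r of their deviations from the group means 0.26 over 14637 genes), so the block carries no pairing known from the design. The log2 fold changes that changed sign were those of genes that were not called: *Ripk1* (-0.08 with library size only, -0.01 with the filter of 50 counts, and -0.08 to 0.09 over the left-out libraries), *Casp2* (-0.06 with library size only) and *Tnfrsf1a* (-0.73 to 1.94 over the left-out libraries). Per length of the longest transcript, EV-RV levels in CPM per kb were 0.680 for *Fas*, 0.0778 for *Tnfrsf10b*, 3.66 for *Cflar*, 29.3 for *Casp8*, 6.96 for *Casp9* and 0.0565 for *Casp4*, since that length is shorter than the merged exons. Calls of pathway genes lost with DESeq2 were those of *Casp6* (adjusted p = 0.101), *Diablo* (0.214), *Nlrp3* (0.272), *Gsdme* (0.147) and *Gsdmd* (0.144). Where the cause is not named, it was not tested. Depth limits *Tnfrsf10b* and *Tnf*, whose ratios of normalized counts had 95% intervals of 0.879 to 3.30 and 0.683 to 4.22.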

Other observations

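Of the other genes near the 8, none was called higher, where 16.0% of all genes tested were. Within 100 kb of any of the 8, 38 other genes were annotated, 12 of them were tested, 4 were called lower, against 13.7% of all genes tested, and 8 were not called. The 4 were *Ppfia1*, coding for liprin alpha 1, next to *Fadd* (log2 fold change -0.42, SE 0.0913, adjusted p = 0.0137), the pseudogene *Cbx3-ps7*, 64269 bp from *Cflar* with other annotated genes between (-0.56, SE 0.189, adjusted p = 0.0706), and *Efhd2* (-0.30, SE 0.0757, adjusted p = 0.0246) and *Dnajc16* (-0.35, SE 0.129, adjusted p = 0.0923) on either side of *Casp9*. *Trak2*, beyond *Casp8*, had a log2 fold change of 0.16 (SE 0.0906, adjusted p = 0.262). *Casp12*, the next gene after *Casp4* in the same cluster, had no more than 3 counts in a library. *Acta2*, next to *Fas* and known from stromal and muscle cells, had 118 and 112 counts in EV-RV and 86 and 190 in IRF4-RV, highest in IRF4-RV 2, where the stromal markers were highest too.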
